A study of Mus musculus with 310 samples.

Results

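The 40 genes described here mark S phase, in which DNA is replicated, and G2 and mitosis (G2/M), in which the chromosomes are condensed and shared out. They were taken from a list of 24 G2/M genes and 16 S genes, and all 40 were among the 14068 genes of the count table. The cells were sorted from mouse tail epidermis after lineage tracing: an EGFP and CreERT2 allele at Lrig1 and a Rosa26 tdTomato reporter with a floxed stop, on a mixed CBA and C57BL/6 background, with a single topical dose of hydroxytamoxifen, given before wounding. Because the Lrig1 promoter drives the recombinase, tdTomato marks cells that expressed Lrig1 at the time of the dose and their later progeny, and every cell of both groups carried these alleles and got this agent. Single tdTomato-positive keratinocytes were processed by a modified Smart-seq2 protocol, which amplifies full-length cDNA and uses no molecular identifiers.

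The labels place 310 cells into the groups 38w (145 cells) and 38wUW (165 cells), given as values of a time tag with no separate age, and the study's methods state that the mice were female. The group 38w holds the replicates RepI (70 cells on plates C114 and C118) and RepL (75 cells on C119), and 38wUW holds RepM (82 cells on C128) and RepN (83 cells on C129). The labels do not spell out UW or say which group had been wounded, so every difference is given as 38w against 38wUW with no direction relative to injury. Replicates are the units of each test between groups (2 against 2), and nothing in the labels ties a replicate to 1 animal, so the p-values measure the spread between these replicates. Plate and replicate cannot be told apart, apart from the 2 plates of RepI.

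Cells had 11703 to 721533 assigned reads (median 61290) and 1992 to 5840 genes. The median depth was 95509 and 44647 reads in RepI and RepL and 44608 and 106610 reads in RepM and RepN, and the median share of mitochondrial reads was 4.28%, 9.69%, 14.6% and 18.3% in the same order. On plate C114, 11 wells each named a pair of columns, one of them with the suffix IDTILL. In 8 of these 11 pairs, the plain column was the most similar of the 309 other cells to the suffixed one, with a correlation of log(CPM + 1) over all genes of 0.38 to 0.60 across the pairs (CPM, counts per 1e+06 reads of a cell or of summed cells). These pairs may therefore hold RNA of 1 cell. A further 2 columns carried the suffix MBULK, which the labels do not explain. The study's methods also describe mini-bulk libraries of sorted cells, and whether these columns are such libraries is not stated. They are counted as cells here. Shares of cells, the members' median change and the counts of cell cycle genes are also given without the 15 suffixed cells.

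Passage through the cell cycle is driven by cyclin-dependent kinases and their cyclins. When E2F factors are released from the retinoblastoma proteins at the end of G1, they switch on genes for nucleotide supply, origin licensing and DNA synthesis, and the genes of G2/M are switched on later by complexes that include B-Myb and FoxM1. In epidermis, division is found mainly among basal keratinocytes attached to the basement membrane, and cells that move upwards stop dividing as they begin to make differentiation keratins.

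Promoters are shown first, since the G2/M genes are known to share 2 sequence elements that the measurements did not use. These are the CCAAT box and the cell cycle genes homology region (CHR), with the letters TTTGAA or, in a variant, TTTAAA. RefSeq windows (GRCm38.p6) were found for 33 of the 40 members, and the 250 bases before the start of each gene were searched on both strands. A gene with more than 1 window counted if any of its windows held the letters. At least 1 CCAAT box was found in 18 of 20 G2/M genes and 9 of 13 S genes, against 37.5% of all 27025 genes. TTTGAA was found in 8 of 20 G2/M genes and 1 of 13 S genes (18.3% of all genes), and TTTAAA in 5 of 20 and 3 of 13 (13.7% of all genes). A CCAAT box together with either CHR spelling occurred in 12 of 20 G2/M genes, 2 of 13 S genes and 11.2% of all genes. An E2F site spelled TTTCCCGC, TTTCGCGC, TTTGCCGC or TTTGGCGC was present in 5 of 13 S genes and 1 of 20 G2/M genes, against 2.16% of all genes.

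The 4 promoters below were picked among windows whose start opens a GENCODE M21 transcript of the gene, without regard to expression. The G2/M pair holds TTTGAA and the most CCAAT boxes plus CHR matches, and the S pair holds the most E2F matches plus CCAAT boxes. Mcm5 and Mcm6 held more E2F matches (2 and 3, each with 2 CCAAT boxes), but their windows did not meet the condition on the start. Each is written 5′ to 3′ on the strand of its gene and ends 1 base before the RefSeq start. Capitals mark the CCAAT boxes, CHR letters and E2F letters on either strand, and in Ube2c one run of capitals joins a pair of CCAAT boxes on opposite strands.
Top2a, chr11:99024190-99024439, minus strand: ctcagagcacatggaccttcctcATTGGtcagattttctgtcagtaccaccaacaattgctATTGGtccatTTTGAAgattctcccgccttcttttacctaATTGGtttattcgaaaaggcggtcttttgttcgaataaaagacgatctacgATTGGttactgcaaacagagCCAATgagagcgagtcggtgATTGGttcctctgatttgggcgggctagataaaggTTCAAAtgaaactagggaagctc
Ube2c, chr2:164769679-164769928, plus strand: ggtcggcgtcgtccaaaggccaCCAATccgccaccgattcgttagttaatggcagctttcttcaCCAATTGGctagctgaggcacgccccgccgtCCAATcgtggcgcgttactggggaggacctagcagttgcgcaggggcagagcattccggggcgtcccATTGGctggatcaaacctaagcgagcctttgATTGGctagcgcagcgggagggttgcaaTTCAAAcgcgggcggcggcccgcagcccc
Mcm7, chr5:138171884-138172133, minus strand: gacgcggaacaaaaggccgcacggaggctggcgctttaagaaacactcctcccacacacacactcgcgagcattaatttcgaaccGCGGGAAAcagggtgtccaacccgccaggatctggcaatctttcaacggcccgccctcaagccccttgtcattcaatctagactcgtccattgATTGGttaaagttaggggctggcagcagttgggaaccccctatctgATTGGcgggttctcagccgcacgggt
Uhrf1, chr17:56304063-56304312, plus strand: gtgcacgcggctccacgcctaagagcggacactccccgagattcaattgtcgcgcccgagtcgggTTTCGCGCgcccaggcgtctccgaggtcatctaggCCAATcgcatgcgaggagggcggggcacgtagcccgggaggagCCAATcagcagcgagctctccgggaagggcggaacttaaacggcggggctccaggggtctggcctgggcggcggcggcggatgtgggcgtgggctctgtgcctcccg
Top2a, topoisomerase IIα, which untangles replicated chromosomes, held 6 CCAAT boxes and 2 TTTGAA matches. Ube2c, the ubiquitin-conjugating enzyme of the anaphase-promoting complex, held 6 CCAAT boxes and 1 TTTGAA match. In the windows shown, Mcm7, a subunit of the replicative helicase, and Uhrf1, which guides maintenance methylation to newly copied DNA, each held 1 E2F match and 2 CCAAT boxes. Both windows lie within the annotated span of the gene. Each of these genes has a further RefSeq window, which held 1 CCAAT box and 0 E2F matches. A match of letters does not show that a factor binds there.

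Most cells held few members, and a small set held many at once. Of the 24 G2/M members, a median of 2 were found per cell, with at least 1 read counted as found. No G2/M member was found in 54 cells, and 276 cells held 5 or fewer. The remaining 34 cells (11%) held 6 or more, which is the rule used here for joint detection, and 12 of them held 18 or more. All 24 were found in 4 cells, 1 each from plates C118 and C129 and 2 from C128. Just inside the rule lay 1 cell with 6 members and 2 with 7, and just outside it 8 cells with 5. S members were spread more evenly: a median of 3 of 16 were found per cell, and 66 cells held 6 or more. Both rules were met by 20 cells, the G2/M rule alone by 14, the S rule alone by 46 and neither by 230. Of the 20 cells that met both, 6 were on plate C114, 1 on C118, 4 on C119, 5 on C128 and 4 on C129.

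**Figure D1:**
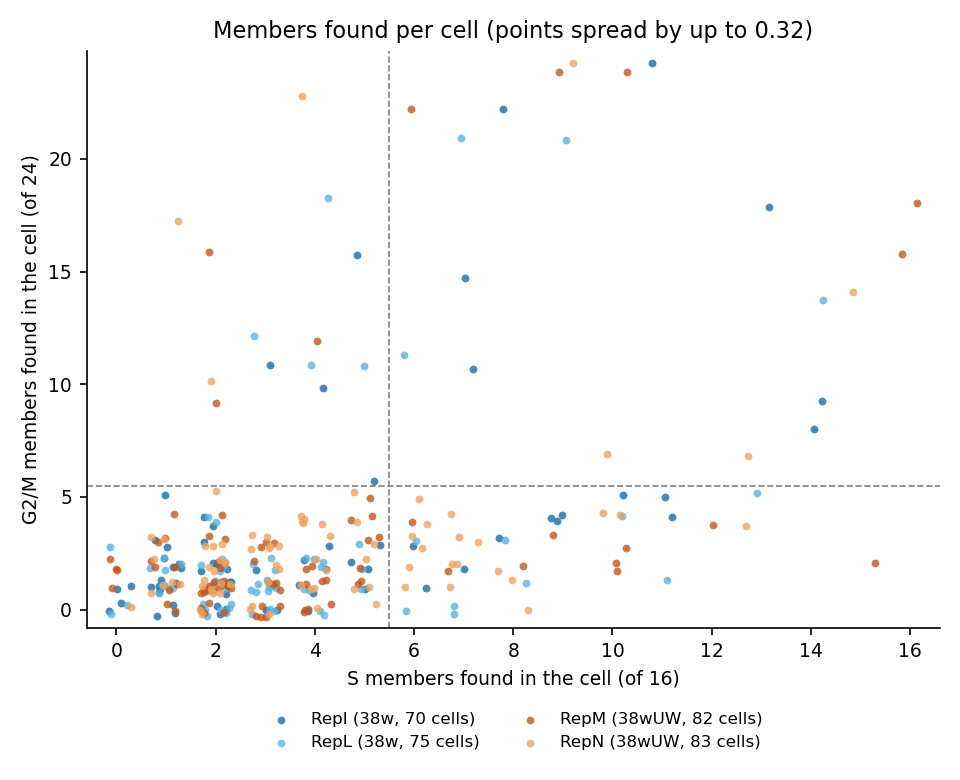
Each point is 1 of the 310 cells, with the number of S members found (of 16) on the horizontal axis and of G2/M members (of 24) on the vertical axis, coloured by replicate. Dashed lines mark the rule of 6 or more, and the 34 cells above the horizontal line come from all 4 replicates.

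Over all replicates, the cells with joint G2/M detection had a median of 84839 reads. The median was 52639 in cells that met neither rule and 102284 in cells that met the S rule alone. Within replicates the order was not constant. Jointly detected cells had a higher median than the other cells in RepI (279571 against 87919) and RepM (69411 against 42838). Their median was lower in RepL (34461 against 44742) and RepN (102436 against 111184). The 73 cells with 3 to 5 G2/M members had a median of 115757 reads and the 12 cells with 18 or more had a median of 74223. Across the 310 cells, which share plates and differ in depth, Spearman's rho between reads and G2/M members found was 0.38, and between reads and S members 0.29. Between genes found and G2/M members it was 0.46, and the part of depth in joint detection was not tested. One of the 34, C129 B3, met the rule at 10 members with a summed G2/M level of only 95.1 CPM in 294297 reads, whereas the others held 515 to 25188 CPM. A further cell, C119 H12, is one of the MBULK columns (11 members) and may not be a single cell. C114 H3 carries the suffix IDTILL (22 members in 20505 reads).

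The mitotic kinases and cyclins are among the 24 genes that chose the 34 cells, so their counts describe the selection. Cdk1, the kinase of mitotic entry, and its cyclins Ccna2, Ccnb1 and Ccnb2 were all found in 13 of the 34 cells, with 3 of them in 8 cells and 2 in 9, whereas 2 of the other 276 cells held 2 of them and none held more. Cdk1 itself was found in 22 of the 34 and 9 of the 276. The kinases of spindle assembly and its checkpoint (Aurka, Aurkb, Plk1, Bub1 and Bub1b) were rarer, with 6 of the 34 cells at 0 of 5 and 4 cells at 5 of 5, against 264 of the 276 other cells at 0. Plk1, the polo kinase, was found in 13 cells, each of which met the rule.

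To keep a gene out of its own selection, each member was then set against the count of the other members of its list, again with 6 as the minimum. On this footing the share of cells with the gene ran from 26.5% (Aurka) to 97.1% (Mki67) in the jointly detected cells for the 24 G2/M members, with a median of 64.2%, and from 0% (Plk1) to 58.8% (Hmgb2) in the rest, with a median of 3.26%. Mki67, the gene of the Ki-67 protein of dividing cells, was found in 33 of 34 and 28 of 276. Top2a was found in 27 of 34 and 43 of 276, and Birc5, survivin of the chromosomal passenger complex, in 29 of 34 and 26 of 276. Hmgb2, a chromatin protein, and Cks2, a small partner of the kinases, were widespread outside these cells as well, with 163 and 81 of 277. For 16 of the 24 G2/M members more than 90% of all reads lay in the jointly detected cells.

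S members behaved differently. With the same rule over the other S members, 15.4% (Ccne2) to 89.3% (Pcna) of the jointly detected cells held the gene, with a median of 52.5%, and 2.86% (Ccne2) to 63.8% (Pcna) of the rest, with a median of 12.1%. Only 1 of the 16, Mcm3, had over 90% of its reads in jointly detected cells. Pcna, the sliding clamp of DNA polymerases, was found in 212 of 310 cells, the most of any member, and Rrm1, the large subunit of ribonucleotide reductase, in 123. Ccne1, cyclin E1 of the G1 to S step, was found in 136 cells and stood apart from its list: it was found in 42.6% of cells with 6 or more of the other S members and 44.2% of those without. Gins2, of the replicative helicase, was found in 36.1% and 21.3%, but 67.3% of its annotated exonic bases overlap exons of Gse1 on the opposite strand. In an unstranded library, a read within the shared bases does not by itself show its gene. Such overlaps were also found at Kif20a with Cdc23 (29.3%), Ube2c with Tnnc2 (22.8%), Ccne2 with Ints8 (17.4%) and Ccna2 with Exosc9 (12.5%). Of these partners, Tnnc2 was not in the count table. Ccnb1, Ccnb2, Pcna and Tyms have annotated pseudogene copies, so their counts are less certain.

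Where a member was found, the size of the gap in its level between the cell sets varied by member, and some members showed little or none. The median over cells with reads was 596 CPM for Mki67 in the 33 jointly detected cells and 46.7 CPM in the 28 others, and 569 against 29.1 CPM for Top2a. For Mcm6 these medians were 60.2 and 65.3 CPM, and for Mcm2 39.0 and 37.3 CPM, whereas Mcm7 was at 78.8 and 44.97 CPM and Mcm4 at 97.5 and 73.3 CPM. Among the other S members the gap was wider for Rrm2 (214 and 34.3 CPM), Rrm1 (170 and 43.2 CPM), Hells (132 and 35.7 CPM) and Tk1 (104 and 32.5 CPM). It was small or absent for Mcm5 (33.7 and 34.3 CPM), Mcm3 (49.0 and 44.8 CPM) and Ccne2 (109.0 and 108.7 CPM). Ccne1 was lower in the jointly detected cells (22.6 and 31.1 CPM). The G2/M values describe the selection and carry no test.

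The 34 cells differed in the number of helicase subunits they held. All 6 subunits of the MCM helicase (Mcm2 to Mcm7) were found in 7 cells, from every replicate, which held 13 to 16 S members and 7 to 18 G2/M members. None of the 6 was found in 9 cells, which held 1 to 5 S members and 6 to 23 G2/M members. The summed S level was 2572 to 7838 CPM in the former and 56.9 to 601 CPM in the latter, and the 18 cells with 1 to 5 subunits lay between and across these ranges, at 111 to 3492 CPM, with 7 to 24 G2/M members. The S level includes the MCM genes themselves. Of the 12 cells with 18 or more G2/M members, 1 held all 6 MCM subunits, and their median was 3. Depth was higher with all 6 subunits (median 166776 reads) than with none (91295 reads), and its part in these differences was not tested.

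**Figure D2:**
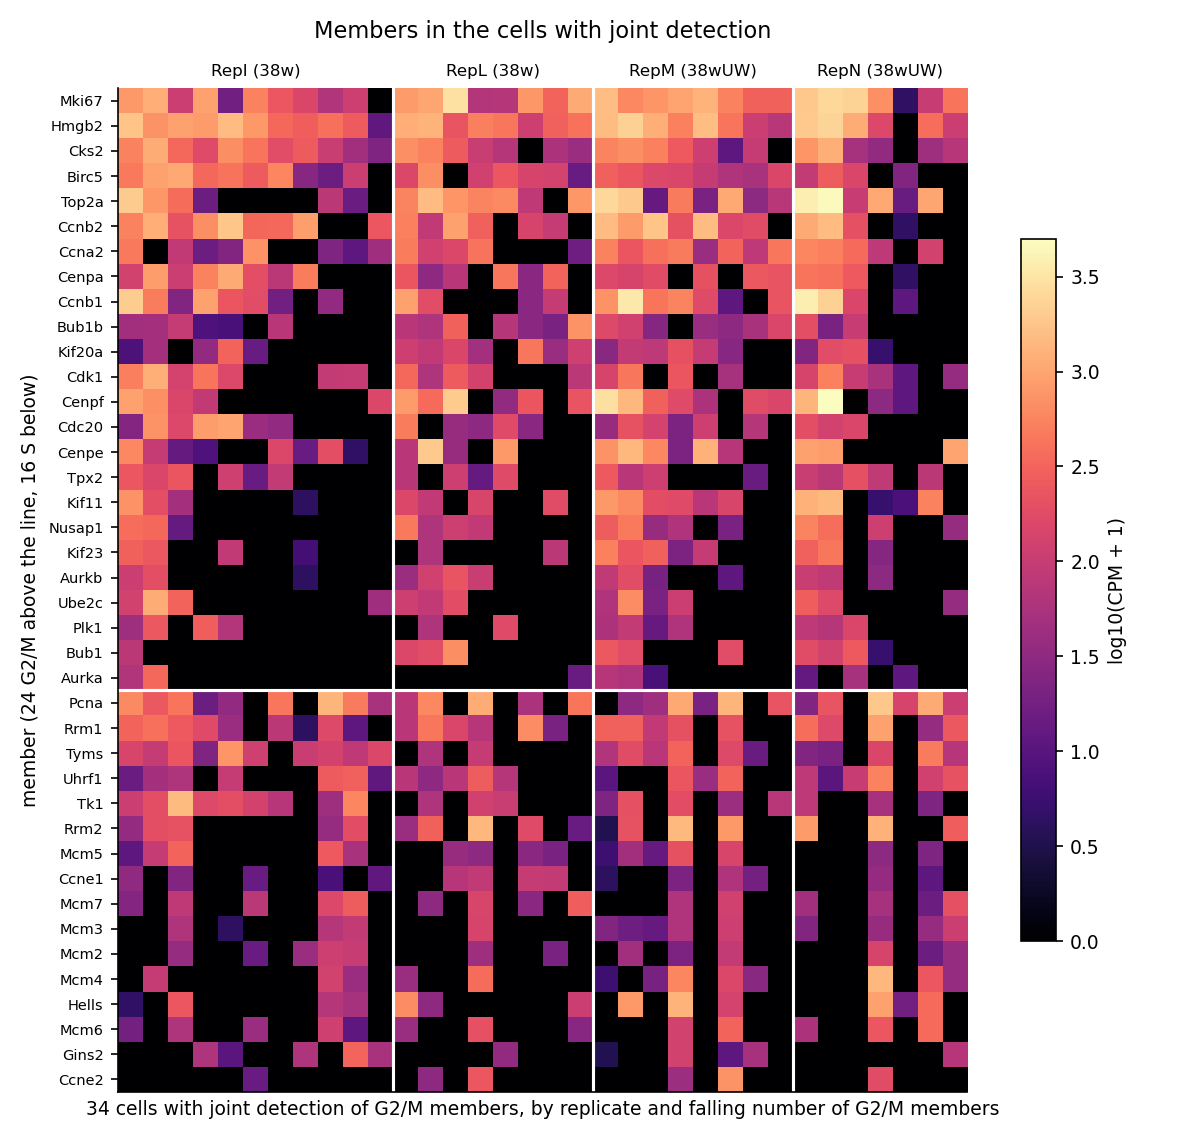
Rows are the 40 members (G2/M above the white line, S below, each ordered by the number of these cells that hold the gene) and columns are the 34 cells with joint G2/M detection, by replicate and falling number of G2/M members. Colour gives log10(CPM + 1); the upper left of each replicate block is filled most, and S genes are bright in a few columns only.

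S members in the G2/M set are a measure the rule did not use, so detection was compared within each replicate after every cell was thinned to 20000 reads, which left 32 of the 34 cells and 245 others. The mean share of the 16 S members found was 38.3% ± 3.22 (SD, n = 4 replicates) in the jointly detected cells and 14.7% ± 1.95 in the others. It was higher in 4 of 4 replicates (exact two-sided sign-flip test, p = 0.125, the smallest that 4 replicates allow). S and G2/M genes belong to the same programme, so the selection itself favours this direction, and the test gives no independent support. Uhrf1 had the largest gap among the S members, with 56.0% ± 5.2 against 4.93% ± 0.44 of cells. Next came Tk1, thymidine kinase (53.0% ± 19.9 against 6.97% ± 1.62), and the 2 subunits of ribonucleotide reductase, Rrm2 (47.1% ± 3.5 against 3.13% ± 1.91) and Rrm1 (69.2% ± 5.0 against 26.9% ± 5.1). Each of these was higher in 4 of 4 replicates. Pcna showed no such gap at this depth, at 56.4% ± 23.0 against 56.6% ± 8.95, nor did Ccne1, at 19.6% ± 24.3 against 23.4% ± 19.5. The 6 MCM genes together were found at 30.4% ± 8.0 against 11.4% ± 1.2.

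Other genes of the cell cycle were set side by side in the 34 cells and the 276 others of the same replicates, from summed counts scaled to CPM. No p-value is given, because the cells were selected by genes that belong to the same programme. As a background, 5.3% of the 11760 genes that passed the filter on low counts were higher in the jointly detected cells in all 4 replicates, and 20.3% were lower in all 4. The lower share is the larger of the pair, and the sums over 7 to 11 cells miss rare genes more often than the sums over 59 to 76 cells. The median over all genes of the mean log2 ratio, with 1 CPM added to both sides, was −0.55.

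All 24 G2/M members, which chose the cells, were higher in all 4 replicates. Of the 16 S members, 11 were higher in all 4 and none was lower in all 4, with a median log2 ratio of 1.80, and with at least 10 G2/M members as the rule 7 were. Of 44 further mitosis genes, 41 were higher in the jointly detected cells in 4 of 4 replicates and none was lower in all 4, with a median log2 ratio of 4.01. Ncapg, a condensin subunit, was at 232, 285, 1475 and 883 CPM in the jointly detected cells of RepI, RepL, RepM and RepN and at 0.133, 1.31, 14.6 and 4.42 CPM in the others. Anln, anillin of the contractile ring, was at 100.9, 78.6, 689 and 243 CPM against 0.741, 0.747, 2.71 and 11.1 CPM. The exceptions were Pttg1, securin (higher in 2 of 4 replicates), Dlgap5 and Gtse1. Of 39 further replication genes, 21 were higher in all 4 replicates (median log2 ratio 1.37), with Clspn, the checkpoint mediator claspin, at 3.51 ± 0.64 (SD over the 4 replicates) and Gmnn, geminin, which blocks relicensing of origins, at 3.33 ± 0.82. Cdc45 was at −0.89 ± 1.43 and higher in 2 of 4. Without the 15 suffixed cells, 11 S members, 40 mitosis genes and 20 replication genes were higher in all 4 replicates, and the counts of the lists described next were as given here.

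Single regulators of entry went both ways. Foxm1, which drives G2/M genes, was higher in all 4 replicates (log2 ratio 4.54 ± 1.07), as was E2f8 (3.31 ± 1.77). Of the 29 G1 cyclins, kinases and E2F genes tested, 5 were higher in all 4 (17.2%, against 5.3% of all genes). Only 1, Ccnd2, was lower in all 4 (3.45%, against 20.3% of all genes), so genes lower in all 4 were rarer here than over all genes. Ccnd2, a cyclin D of G1, was at 498, 74.7, 114.2 and 321 CPM in the jointly detected cells against 636, 295, 407 and 461 CPM in the others. Ccnd1, the other main cyclin D of keratinocytes, was at 116, 76.4, 10.7 and 48.4 CPM against 89.96, 308, 107 and 220 CPM, lower in RepL, RepM and RepN and slightly higher in RepI.

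Among 16 inhibitors and quiescence genes, 5 were lower and 4 higher in all 4 replicates (31.2% and 25%, against 20.3% and 5.3% of all genes), so the excess over all genes was small for those that were lower. Cdkn1a, the p21 inhibitor, was at 119.2, 11.2, 23.7 and 9.90 CPM in the jointly detected cells against 138, 43.0, 95.5 and 57.6 CPM in the others, and Cdkn1b, the p27 inhibitor, at 18.8, 13.5, 34.1 and 34.1 CPM against 24.1, 37.9, 80.5 and 57.5 CPM. Cdkn2b, the p15 inhibitor, was at 0 in 3 replicates and 4.49 CPM in RepI, against 6.90 to 16.62 CPM. Btg1 and Btg2, antiproliferative genes, were the other members of this set. The 4 that were higher in every replicate were Cdkn3, Cdkn2c, Cdkn2d and Fzr1. Cdkn3, a phosphatase that acts on Cdk1 and Cdk2 and is itself a G2/M gene, had a log2 ratio of 6.402 ± 0.74, and Fzr1, an activator of the anaphase-promoting complex, one of 1.47 ± 0.41.

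The jointly detected cells held basal keratinocyte genes at levels close to the other cells and differentiation genes at far lower levels. Krt14, the basal keratin, was at 22789, 5937, 1866 and 1169 CPM in RepI, RepL, RepM and RepN against 18672, 4517, 1796 and 798 CPM in the others, a log2 ratio of 0.32 ± 0.21. The log2 ratios of the 6 basal markers ran from −0.54 to 0.67. At least 2 of them were found in all 34 cells and in 239 of the 276 others. At least 2 of 6 markers of interfollicular differentiation were found in 22 of the 34 cells and 217 of the others. For infundibular and duct markers these counts were 16 and 173. Of 6 infundibular and duct markers, 5 were lower in 4 of 4 replicates (20.3% of all genes were) and the median log2 ratio was −5.45. Krt17 was at 45.3, 31.6, 39.99 and 12.3 CPM against 5005, 590, 3107 and 656 CPM, and Cst6, cystatin M/E, at 20.6, 130, 35.2 and 31.9 CPM against 51493, 2744, 18996 and 3740 CPM. Gata6 was the exception, lower in 3 of 4. Of 6 markers of interfollicular differentiation, 5 were lower in all 4 replicates, among them Krt10, the first suprabasal keratin, at 1384, 4.49, 719 and 37.4 CPM against 5723, 2402, 5256 and 2579 CPM. Lor, found in 8 cells in all, was the exception. Differentiation genes took up reads of the other cells, with a summed 62118 CPM for the infundibular list in RepI, and the part of this in the ratios of other genes was not tested.

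**Figure D3:**
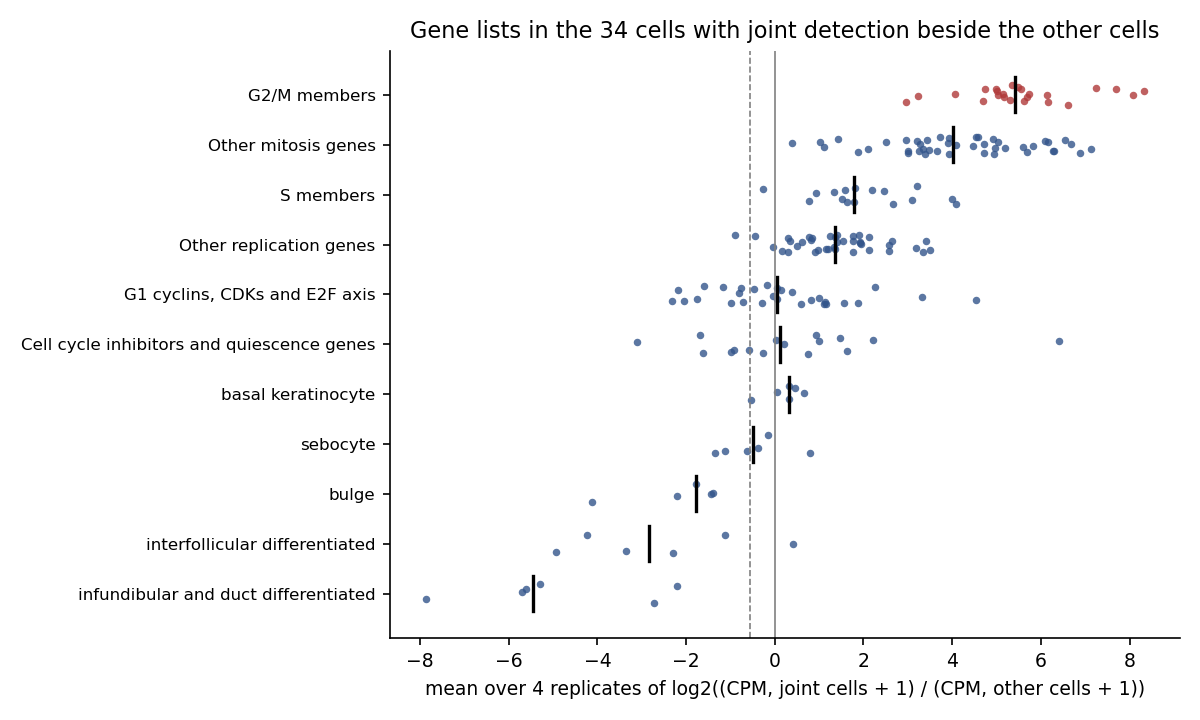
Each point is a gene of the list named on the vertical axis, and the horizontal axis gives the mean over 4 replicates of the log2 ratio of summed CPM (1 CPM added) in the 34 cells with joint G2/M detection over the 276 others. Black bars are list medians, the dashed line is the median of all tested genes (−0.55), and the G2/M members in red were used to select the cells.

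Markers of bulge cells were lower in all 4 replicates for 1 of 5 tested genes (20%, against 20.3% of all genes), Lhx2, at 0 to 39.6 CPM against 29.6 to 102 CPM. The median log2 ratio of this list was −1.79, with all 5 between −4.12 and −1.39. The sum of the 6 listed bulge markers was lower in the jointly detected cells in RepI (54.7 against 273 CPM) and RepL (76.4 against 944 CPM). It was also lower in RepN (473 against 1275 CPM) but higher in RepM (1034 against 732 CPM). At least 1 bulge marker was found in 70.6% of the 34 cells and 56.2% of the 276. None of 6 sebocyte markers was lower in all 4 replicates, and 1 was higher in all 4 (16.7%, against 5.3% of all genes). Their sum was lower in the jointly detected cells in RepI (110 against 419 CPM) and RepL (276 against 607 CPM). It was higher in RepM (535 against 337 CPM) and RepN (1968 against 743 CPM). At least 2 sebocyte markers were found in 30 of the 34 cells and 187 of the 276. Of markers of cells outside the epithelium, the 2 immune genes in the table (of 6 listed) summed to at most 8.80 CPM in any set, the 5 fibroblast genes to 5.17 to 116 CPM in the jointly detected cells and 6.82 to 46.96 CPM in the others, and the 4 melanocyte genes to 7.07 to 24.9 and 7.57 to 30 CPM. At least 2 fibroblast markers were found in 5 of the 34 cells and 10 of the 276, at least 2 melanocyte markers in 3 and 23, and at least 2 immune markers in 0 and 1. Their part in the results was not tested. Pecam1, listed as endothelial, was found in all 310 cells, at up to 11134 CPM in a set, whereas the endothelial genes Kdr and Vwf were found in 8 and 13 cells and in none of the 34.

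The share of cells with joint G2/M detection was compared between the groups over replicates. It was 11 of 70 cells in RepI (15.7%, 95% Wilson interval 9.01 to 26.0) and 8 of 75 in RepL (10.7%, 5.505 to 19.7). In RepM it was 8 of 82 (9.76%, 5.03 to 18.1) and in RepN 7 of 83 (8.43%, 4.15 to 16.4). These intervals cover counting error only. The groups did not overlap, at 13.2% ± 3.6 (SD, n = 2) in 38w and 9.09% ± 0.94 (n = 2) in 38wUW, and 38w was 4.10 percentage points higher, which an exact two-sided permutation test could not call (p = 0.333, the smallest p that 2 against 2 allows). The 2 plates of RepI gave 10 of 53 cells (18.9%, C114) and 1 of 17 (5.88%, C118), so these plates lay further apart than the groups did. The median mitochondrial share was 2.77% on C114 and 33.8% on C118, and its part in this was not tested. Without the 15 suffixed cells RepI gave 10 of 57 (17.5%) and RepL 7 of 74 (9.46%), which is below RepM, and the groups then overlapped.

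The batch tag of the labels allowed a comparison within batches. In batch Replicate1 the share was 9.78% in 38w and 8.43% in 38wUW, and in Replicate2 it was 18.9% and 9.76%. With the alternative tag, which swaps plates C128 and C129, the pairs were 9.78% and 9.76%, and 18.9% and 8.43%. The difference ran from 0.0265 to 10.4 percentage points over the batches of both tags, and the batches with the larger difference rest on plate C114. The tags give C128 and C129 opposite values, so which cells of the groups share a batch is not settled. These values therefore do not show a difference that repeats between batches.

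Joint S detection showed no order between the groups. It was found in 17 of 70 cells of RepI (24.3%) and 13 of 75 of RepL (17.3%), against 14 of 82 of RepM (17.1%) and 22 of 83 of RepN (26.5%). The group means were 20.8% ± 4.9 and 21.8% ± 6.7, which gave −0.98 points for 38w minus 38wUW and a two-sided p of 1 in an exact permutation test over replicates. Without the 15 suffixed cells RepI gave 15 of 57 (26.3%), RepL 13 of 74 (17.6%) and RepN 22 of 82 (26.8%). Within batches the difference was −9.11 and 9.34 points, and with the alternative tag 0.32 and −0.091 points. Cells that met the S rule alone were most frequent in RepN, with 18 of 83 (21.7%), against 9 to 10 cells in each of the other replicates.

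**Figure D4:**
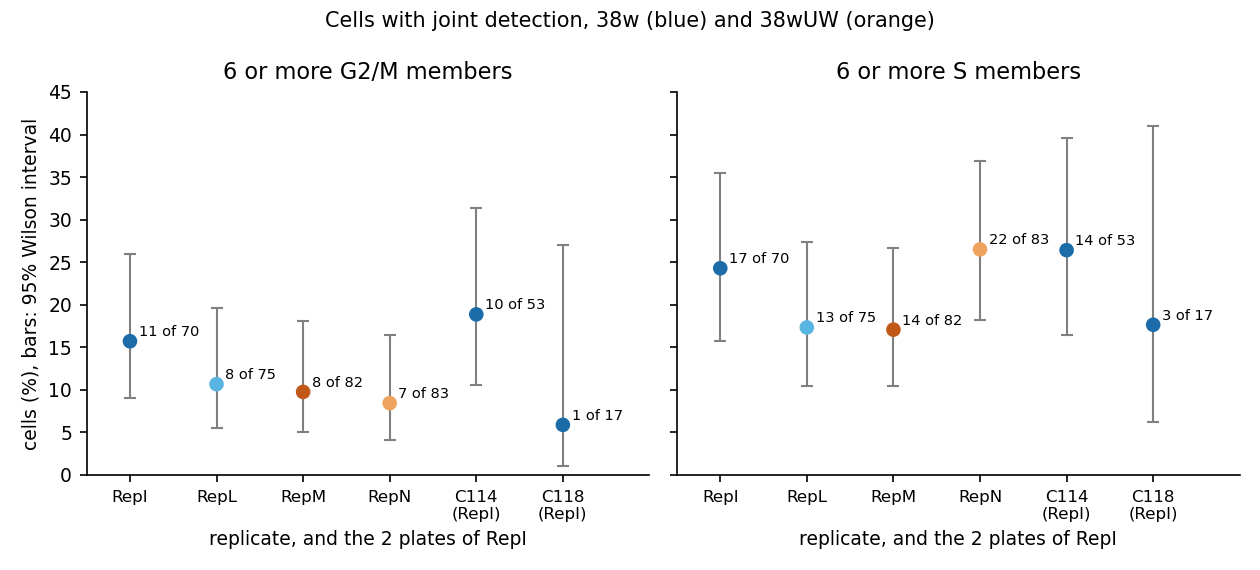
Points give the percentage of cells with 6 or more G2/M members (left) or S members (right) in each replicate and on the 2 plates of RepI, with 95% Wilson intervals, 38w in blue and 38wUW in orange. The intervals of all replicates overlap, and plate C118 holds 17 cells.

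Levels of the members were then compared from counts summed per replicate, with edgeR's quasi-likelihood test over all 11760 genes that passed the filter, among them all 40 members. In sums over cells, fewer cells that hold a gene and less RNA per cell cannot be told apart. No gene passed an adjusted p of 0.05 (0% of all genes), with 928 at an unadjusted p under 0.05 (7.89% of all genes), and DESeq2 called 68 genes, none of them a member. The members' adjusted p ranged from 0.628 to 0.999. Of the 40, 16 had a log2 fold change (38w against 38wUW) above 0 and 24 below 0, whereas 53.4% of all genes were above 0. The median was −0.38 for G2/M, 0.064 for S and −0.22 for all members, beside 0.12 for all genes. The sign of the members' median was not stable, since it was 0.31 after thinning and 0.68 without RepM. Without the suffixed cells it was −0.24. Both 38w replicates lay above both 38wUW replicates for 1 member, Mcm7 (12.6% of all genes), and below them for 7 (26.2% of all genes), namely Top2a, Cenpf, Kif11, Ccne2, Mcm4, Rrm1 and Hells.

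Single cells carried these sums. For the G2/M members the cell with the most reads of a gene held a median of 53.6% and 44.7% of that gene's reads in RepI and RepL, and 63.2% and 41% in RepM and RepN. In RepM 1 cell, C128 B7, led 21 of the 24 G2/M members and held 62.3% of all their reads. The summed G2/M level was 1082, 406, 1986 and 602 CPM in RepI, RepL, RepM and RepN, and 726, 340, 812 and 406 CPM without the leading cell of each (C118 A11, C119 A9, C128 B7 and C129 B4). The summed S level was 601, 431, 519 and 776 CPM.

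Mki67 (chr7:135689784-135716361, GRCm38) was at 73.2 and 81.7 CPM in RepI and RepL and at 192 and 67.1 CPM in RepM and RepN, and its groups overlapped (log2 fold change −0.50, SE 0.86). Top2a (chr11:98992943-99024189) was at 69.3, 46.9, 253 and 119.01 CPM, so that both 38w replicates lay below both 38wUW replicates, and the log2 fold change was −1.43, with SE 0.86 and an edgeR adjusted p of 0.682. Cdk1 (chr10:69335146-69352938) was at 35.1, 8.96, 19.4 and 8.03 CPM, and Ccnb1 (chr13:100778650-100786570) at 84.7, 6.55, 116 and 43.7 CPM, both with overlapping groups. Of the widespread G2/M members, Hmgb2 was at 215, 92.9, 295 and 131 CPM, Cks2 at 76.2, 16.9, 92.5 and 42.4 CPM and Birc5 at 70.9, 13.96, 38.6 and 8.42 CPM. In each of these 3 the values of the groups interleaved.

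Cenpf, a protein of the kinetochore and nuclear matrix, had the largest negative change, and it was the member with an unadjusted p under 0.05. In 38w it was at 33.99 and 20.5 CPM (RepI, RepL) and in 38wUW at 254 and 49.7 CPM (RepM, RepN), without overlap (log2 fold change −2.23, SE 0.97, unadjusted p = 0.0351 and adjusted p = 0.628 by edgeR). C128 B7 held 88.2% of its reads in RepM. Next came Kif23, a motor of the midzone in cytokinesis, at 12.7, 2.07, 53.9 and 8.11 CPM (log2 fold change −1.80, SE 1.17), with overlapping groups. Hells, a chromatin remodeller, was at 12.7 and 6.72 CPM in 38w and at 38.1 and 37.3 CPM in 38wUW (log2 fold change −1.69, SE 0.94, edgeR adjusted p = 0.661).

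The largest positive changes were those of Cdc20, the activator of the anaphase-promoting complex, Tk1 and Ccne1. Cdc20 was at 48.8 CPM in RepI and 4.83 in RepL, with 12.97 in RepM and 2.55 in RepN (log2 fold change 2.06, SE 1.21). Tk1 was at 57.7, 5.86, 13.9 and 4.48 CPM (2.06, SE 1.14). In both, RepI alone was high and RepL lay below RepM. Ccne1 was at 2.82, 36.6, 11.9 and 4.61 CPM (1.48, SE 1.202), with the high value in RepL. None of these changes passed the adjusted threshold with all replicates, but without RepL both Cdc20 and Tk1 did (edgeR adjusted p = 0.0195 and 0.0152). In that fit 1215 of 12932 genes were called (9.40%), against 2 of 40 members (5%). The sign of each also depended on 1 replicate: without RepI the log2 fold change was −0.45 for Cdc20 and −0.41 for Tk1, and without RepL it was −1.22 for Ccne1.

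Of the S members, Pcna (chr2:132249162-132253314) was at 237, 140, 143 and 355 CPM and Mcm2 (chr6:88883474-88898780) at 15.5, 5.23, 6.21 and 19.4 CPM, with overlapping groups in both and log2 fold changes of −0.14 and −0.045. Rrm1 was at 41.5 and 16.2 CPM in 38w and at 63.4 and 98.7 CPM in 38wUW (log2 fold change −1.23, SE 0.90, edgeR adjusted p = 0.723). Tyms, thymidylate synthase, was at 58.9, 10.8, 34.4 and 23.9 CPM, and Gins2 at 23.7, 8.79, 11.9 and 7.49 CPM.

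**Figure D5:**
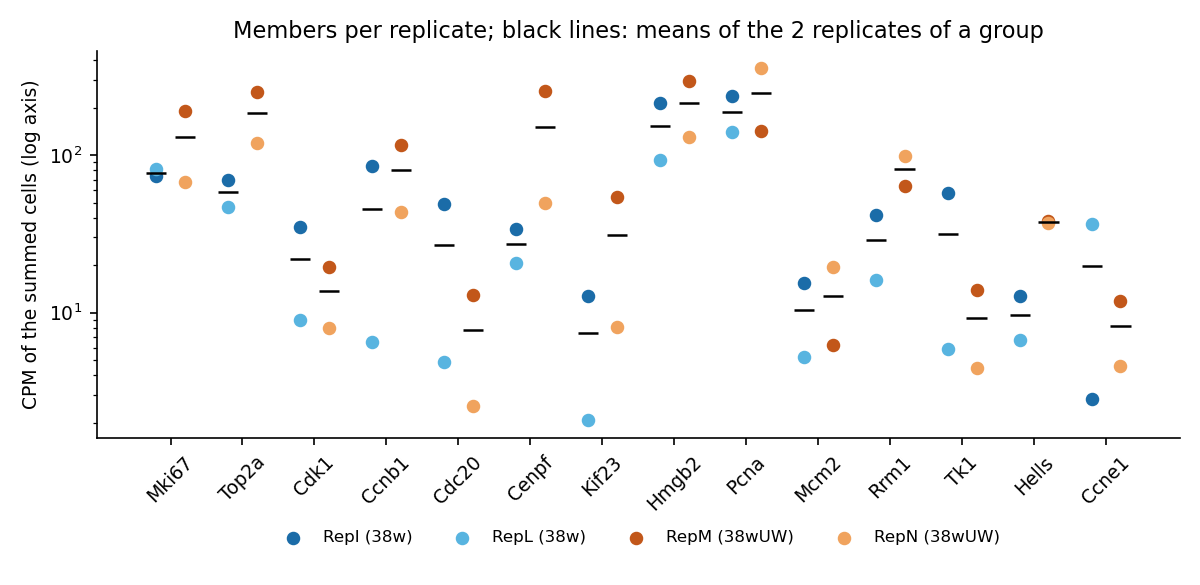
Points give the CPM of the summed cells (log axis) for 14 members in RepI and RepL (38w, blues) and RepM and RepN (38wUW, oranges), and black lines the mean of each group. The 2 replicates of a group often lie as far apart as the groups, and Hells, Top2a, Cenpf and Rrm1 are the members shown whose groups do not overlap.

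None of the other cell cycle lists held a gene past the adjusted threshold. The median log2 fold change was −0.65 for 44 further mitosis genes (15 above 0, 29 below) and 0.080 for 39 replication genes (21 and 18). It was 0.18 for 29 genes of the G1 and E2F axis (17 and 12) and 0.66 for 16 inhibitors and quiescence genes (12 and 4). Over all genes the median was 0.12, with 53.4% above 0. The genes with the smallest p of each list were Cenpm, a kinetochore gene (log2 fold change 2.70, SE 1.17), Dut, the dUTPase (2.89, SE 1.11), Lin37 of the DREAM complex (2.46, SE 1.23) and Gadd45b, a stress-response gene (3.27, SE 1.16), with edgeR adjusted p of 0.628 to 0.643. Ccnd1 (0.61, SE 0.90), Ccnd2 (0.38, SE 0.97), Cdkn1a (0.60, SE 0.89) and Cdkn1b (−0.88, SE 0.87) did not pass either. The sum of the 6 basal keratinocyte markers was higher in both 38w replicates, at 23122 and 7223 CPM in RepI and RepL. In RepM and RepN it was 3275 and 2462 CPM. Taken singly, 12.6% of all genes lay higher in both 38w replicates. All 6 basal markers had a log2 fold change above 0, beside 53.4% of all genes, and none of them was called (smallest edgeR adjusted p 0.628). Sums of the infundibular list (47906 and 3797 against 23233 and 6220 CPM) and of the interfollicular list (17464 and 3473 against 6310 and 4314 CPM) overlapped between the groups. The part of these levels in the members' values was not tested.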

How the data were processed

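The authors quantified the reads with Salmon 0.13.1 against the Ensembl 101 mouse transcriptome (mm10) and deposited 1 table of estimated counts per gene and cell, not normalized, of which 3.60% were not whole. The labels assigned the 310 cells to groups and replicates, and no column was left unused. The cell filters in the study's methods removed no cell here. The members and gene lists were chosen with earlier results of these data known. Counts were rounded per cell to call a gene found (1 read or more). For the group comparison they were summed per replicate, rounded and tested in R 4.3.3 with edgeR 4.0.16 (filterByExpr, TMM, quasi-likelihood, Benjamini-Hochberg, threshold 0.05). DESeq2 1.42.0 was an alternative. The code was tested on simulated data. Shares were compared by an exact permutation test over replicates. Comparisons of jointly detected cells with the rest were added after the data were seen and have no p-value across genes. Thinning used 20000 reads per cell and left out 33 shallower cells (7 of 38w, 26 of 38wUW). Gene positions and overlaps came from GENCODE M21. All 40 members were accounted for, and those given in full were the 6 usual markers, the 5 found in most cells per list, the 3 largest changes each way and those with an unadjusted p under 0.05. From other lists, the D cyclins, p21, p27 and the gene of smallest p per list were named. Other genes were named after their values were seen.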

Additional observations from a re-analysis of the deposited data

How the results depend on the processing

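Few replicates and single cells with many reads limit all group values. No gene was called between 38w and 38wUW in the main test or under 10 of 15 alternatives. DESeq2 called 68 genes, edgeR without a filter on low counts 1 and plates as units with the batch tag as a replicate block 3, and the cause was not tested. Leaving out 1 replicate gave 0 to 1215 genes (146 without RepI, 1215 without RepL), with a single replicate left in 1 group, which is assumed to vary like the other group. Members called numbered 0 throughout, except without RepL, where Cdc20 (log2 fold change 3.01) and Tk1 were called (range over left-out replicates 0 to 2). The median log2 fold change of the members was −0.22 and ran from −1.03 to 0.68 when 1 replicate was left out. It was 0.31 after thinning, 0.40 with equal weight per cell, 0.34 with plates and the block, 0.40 with plates alone and 0.33 with RepI from C118 alone, so its sign is not settled.

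Signs of named members changed as follows. Mki67 was at 0.53 after thinning, 0.34 with equal weight per cell, 0.31 with RepI from C118 alone and 0.48 without RepM. RepI from C118 alone gave 0.32 for Top2a, 0.028 for Kif23 and −0.54 for Cdc20. Kif23 was at 0.16 without RepM, Cdc20 at −0.45 and Tk1 at −0.41 without RepI, and Ccne1 at −1.22 without RepL. Over the 4 fits that left out 1 replicate, the range was −1.08 to 0.48 for Mki67, −3.67 to 0.16 for Kif23, −0.45 to 3.68 for Cdc20, −0.41 to 3.11 for Tk1 and −1.22 to 2.38 for Ccne1.

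The difference in the share of jointly detected G2/M cells was −0.82 percentage points with RepI from C118 alone and 1.57 to 6.62 when 1 replicate was left out. It was 0.49 with 4 members as the minimum, and 5.23 with plates and the batch tag as a replicate block. The difference for S members was 0.51 with at least 8 members, 0.35 with at least 3 reads per member, 0.61 after thinning, 0.11 with plates and the batch tag (either tag) as a replicate block, 0.085 with RepI from C114 alone, 2.83 without Pcna and Mcm3 and −5.70 to 3.74 when 1 replicate was left out, including 2.50 without RepL and 3.74 without RepN. The replicate numbers in the labels do not pair samples of the groups. With 10 members as the minimum for joint detection, 7 instead of 11 S members and 8 instead of 21 replication genes were higher in all 4 replicates. Basal markers higher in all 4 replicates numbered 1 with this minimum, 1 after thinning and 4 with equal weight per cell, instead of 2. Sebocyte markers higher in all 4 numbered 0 with this minimum and 0 after thinning, instead of 1.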
